A study of Mus musculus with 10 samples.

Results

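A set of 9 genes of antigen presentation on major histocompatibility complex (MHC) class I were described in hippocampal microglia of 2-week-old mice. They were chosen by gene name, and all 9 were found among the 545 endogenous genes of the panel: the class I heavy chain H2-K1, its light chain B2m, the peptide loading genes Tap1 and Tapbp, and the proteasome genes Psmb5, Psmb7, Psmb10, Psmc2 and Psmd7. The cells came from male Balbc pups at postnatal day 14. The 5 control pups (numbers 1, 18, 40, 52 and 69) and the 5 pups under brief daily separation (BDS; numbers 11, 17, 24, 38 and 59) were from different litters. BDS took pups from the mother for 15 min a day. The schedule in the labels runs from postnatal day 1 to day 21, so the BDS pups were collected before its end, and no treatment of the control pups is described. Microglia were enriched on a Percoll gradient and sorted, but no source used here gives the sort markers. Each pup took 1 lane of an nCounter panel of mouse immune genes, in which every bound probe carries a fluorescent barcode that is counted. The target was amplified cDNA.

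Class I molecules show fragments of the cell's own proteins to CD8 T cells and natural killer cells. The fragments are cut by the proteasome, a barrel of catalytic subunits capped by a regulatory particle that unfolds proteins. They are carried into the endoplasmic reticulum by the TAP transporter and loaded, with the help of tapasin, onto a heavy chain paired with beta-2 microglobulin. Interferons raise most of these genes and exchange the catalytic subunits of the proteasome for inducible ones. Microglia of the healthy brain are known for low class I levels, which increase with interferon and with age.

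The sum of endogenous counts was lowest in control 52, at 76237, and highest in BDS 17, at 968930, and the housekeeping signal (geometric mean of 6 genes) spanned an 11.1-fold range. That signal averaged 8.55 ± 1.28 on the log2 scale in control lanes and 9.79 ± 0.55 in BDS lanes (SD, n = 5 each), a difference of 1.23 (exact two-sided permutation p = 0.0873). The deeper lanes were therefore mostly BDS lanes, beside every value given here, where depth means the housekeeping signal of a lane. The geometric mean of the positive control probes spanned only a 1.65-fold range, at 1129 in BDS 17 and 1864 in control 52. Without control 40 the difference in housekeeping signal was 1.61 (exact permutation p = 0.0238). That lane had the most signal of the control lanes, at 10.05 on the log2 scale, so its removal widens the difference. Raw counts of Tap1, Psmb5 and Psmd7 were low throughout, and in control 52 those of Psmb7 and Psmb10 were 35 and 45, so counting noise weighs most there. A normalized count is a raw count over the housekeeping signal of its lane, brought back to the scale of counts. Of the 6 genes behind that signal, Polr1b exceeded background in 3 of 5 control lanes and in 5 BDS lanes, with raw counts down to 6. Sdha raw counts ranged only from 135 to 474, so its normalized counts averaged 451 in control lanes and 227 in BDS lanes. Results with either gene left out of the scaling are given below. All 10 microglia markers fixed for the check of the label exceeded background in at least 4 lanes. Of the other lists, 1 of 10 T cell genes (Cd3eap, which encodes an RNA polymerase I subunit and marks no cell type), 2 of 6 B cell markers, 1 of 3 natural killer cell markers, 1 of 5 neutrophil markers, 1 of 5 dendritic cell and monocyte markers and 3 of 4 endothelial markers did so. Cd3e, which defines T cells, exceeded the limit in 0 lanes and Itgax of dendritic cells in 3 lanes. In the neutrophil list, S100a8 and S100a9 did so in 1 lane each, Camp in 0, Cxcr2 in 3 and Csf3r in 10. Ccr2, of the dendritic cell and monocyte list, did so in 9. Some markers differed between the groups at an unadjusted p under 0.05, but 0 passed the adjusted threshold. Log2 fold changes were -0.77 for Csf3r, 0.59 for Ccr2, and 0.97 and -0.56 for the endothelial genes Cdh5 and Pecam1 (edgeR adjusted p = 0.0890, 0.137, 0.128 and 0.156). Microglia markers went both ways, with C1qa at 0.76, Ctss at 0.48, Cx3cr1 at -0.63 and Itgam at -0.56 (edgeR adjusted p = 0.0642, 0.132, 0.126 and 0.0964). Their part in the results was not tested. In bulk samples, fewer cells of a type and less RNA per cell cannot be told apart.

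No gene of the panel passed the adjusted threshold. Of 283 genes tested with edgeR's quasi-likelihood test, 0% had an adjusted p under 0.05, and 28.3% had an unadjusted p under 0.05, 19.4% higher (55 genes) and 8.83% lower (25 genes) in BDS lanes. TMM scaling split such genes into 36 higher and 39 lower. A gene was tested if it exceeded the lane's background limit (mean plus 2 SD of the negative control probes) in at least 4 of 10 lanes, which 8 of the 9 genes did. Psmb5 did not. At an unadjusted p under 0.05, Psmb7 was the 1 of the 8 with a higher value in BDS lanes and Tap1 the 1 with a lower value, although Tap1 was not above background in 6 of 10 lanes. The 8 had a median log2 fold change of 0.30, against 0.09 over all 283 genes. DESeq2 called 26 genes at an adjusted p under 0.05, among them Psmb7 and Tap1. With edgeR, leaving out control 40 gave 47 called genes and leaving out BDS 11 gave 19. Control 40 was the deepest control lane and BDS 11 the shallowest BDS lane, so either removal widens the difference in depth between the groups.

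**Figure D1:**
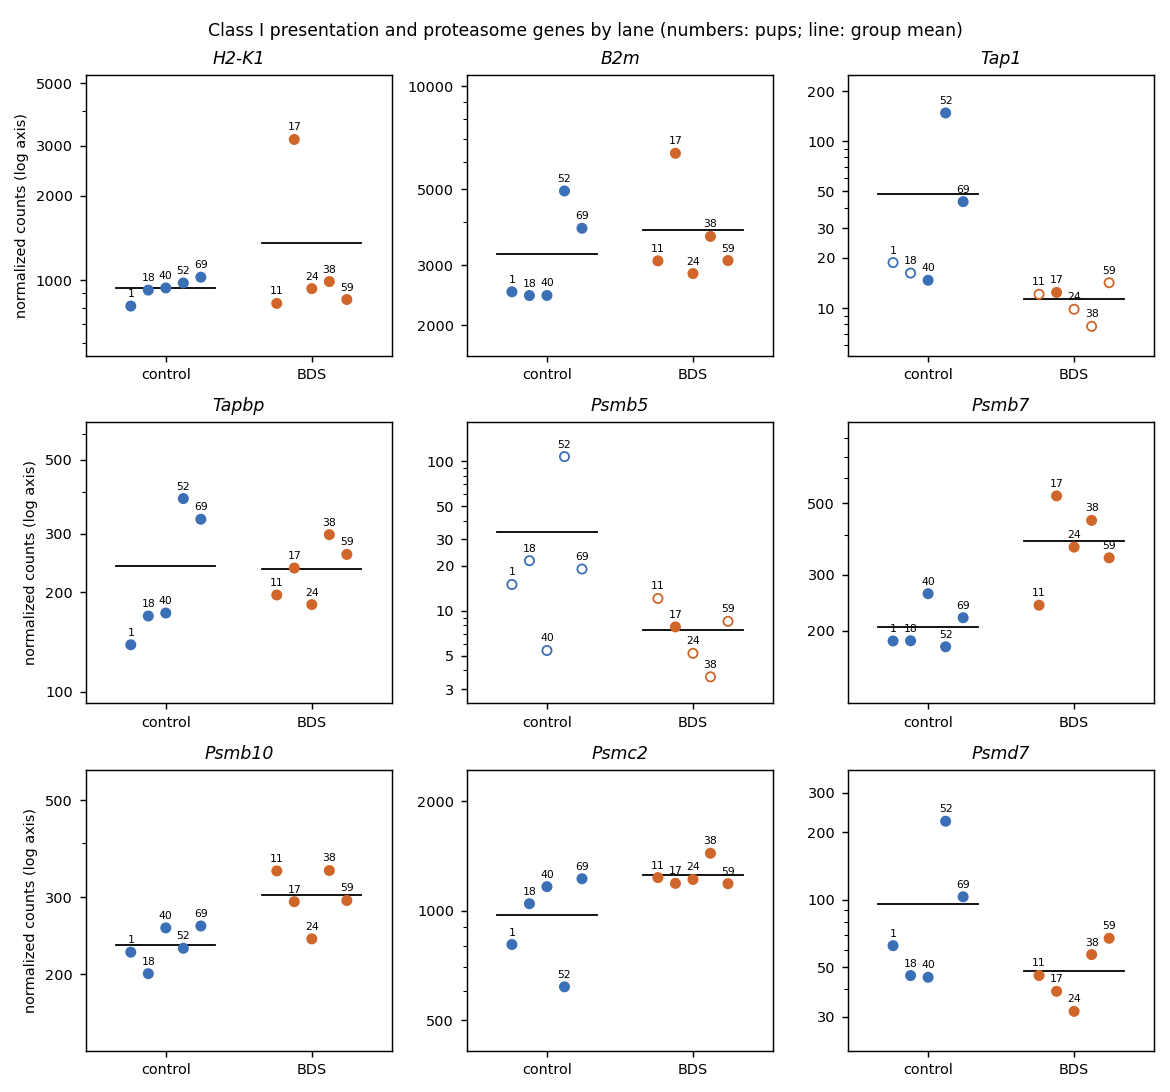
Normalized counts (log axis) of the 9 genes in each of 10 lanes, with control lanes in blue, BDS lanes in orange and the pup number above each point. Lines are group means, and open points are lanes whose raw count did not exceed the background limit. H2-K1 in BDS 17, at 3164, stands apart from the 9 other lanes, at 811 to 1027.

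H2-K1 encodes a heavy chain, the part of the class I molecule that holds the peptide. Control lanes 1, 18, 40, 52 and 69 stood at 811, 924, 940.4, 979 and 1027 normalized counts, and BDS lanes 11, 24, 38 and 59 at 828.6, 935, 991 and 855. BDS 17 stood at 3164. The other 9 lanes thus lay close together, without separation of the groups, and BDS 17 lay far above them. The group values were 936 ± 80.5 in control lanes and 1355 ± 1013 in BDS lanes (SD, n = 5 each), a difference of 0.54 ± 0.34 in log2 (SE; edgeR adjusted p = 0.283). Without BDS 17 the log2 fold change was -0.05 ± 0.17 (edgeR adjusted p = 0.885). H2-K1 took 0.711% of endogenous counts in BDS 17 and between 0.185% and 0.252% in the other lanes. Heavy chain genes are alike in sequence and differ between mouse strains, and Balbc mice carry another H2 haplotype than the reference strain, and whether this probe also counts related heavy chains was not tested.

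B2m encodes beta-2 microglobulin, the invariant light chain without which class I molecules do not reach the cell surface. It stood at 2505, 2442, 2443, 4942 and 3843 normalized counts in control pups 1, 18, 40, 52 and 69. In BDS lanes 11, 17, 24, 38 and 59 it stood at 3086, 6371, 2832, 3638 and 3092. BDS 17 was again highest, while control 52 and 69, the lanes of least housekeeping signal, followed it, so the groups overlapped. The means were 3235 ± 1126 and 3804 ± 1465 (SD, n = 5 each), with a difference of 0.24 ± 0.27 in log2 (SE; edgeR adjusted p = 0.570). Leaving out single lanes or pairs moved this value widely: it was -0.03 without BDS 17, 0.44 without control 52 and 0.63 ± 0.25 without control 52 and 69 (edgeR unadjusted p = 0.0260, adjusted p = 0.117), and 0.36 ± 0.15 with BDS 17 left out as well (adjusted p = 0.182). Among the 3 other control lanes B2m ranged from 2442 to 2505, below every BDS lane. Control 52 and 69 were the highest control lanes and were left out after the data were seen, so this separation follows from their removal. In the fit without them, 87 of 278 genes had an unadjusted p under 0.05 (edgeR), 70 of them higher. The median log2 fold change of all genes in that fit was 0.21.

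Both chains were highest in the same pup. The stretch before the start of each gene is shown because interferon and NF-kappa B control of class I genes acts there. Capitals mark matches, on either strand, to AANNGAAA, the core bound by interferon regulatory factors, and to an NF-kappa B site, spelled GGGA, any base, T, any 2 bases, CC. Sequences are from RefSeq (GRCm38.p6, C57BL/6J) and run 5′ to 3′ along the gene, from 250 bases before to 50 after the start site. H2-K1 lies on the minus strand at chr17:34000298-34000597 and B2m on the plus strand at chr2:122147437-122147736.
H2-K1: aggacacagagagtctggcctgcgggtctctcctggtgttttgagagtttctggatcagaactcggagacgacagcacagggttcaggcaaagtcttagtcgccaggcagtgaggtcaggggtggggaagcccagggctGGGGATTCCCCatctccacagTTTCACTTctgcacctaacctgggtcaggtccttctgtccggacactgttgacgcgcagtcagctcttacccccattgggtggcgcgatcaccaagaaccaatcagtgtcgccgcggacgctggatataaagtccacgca
B2m: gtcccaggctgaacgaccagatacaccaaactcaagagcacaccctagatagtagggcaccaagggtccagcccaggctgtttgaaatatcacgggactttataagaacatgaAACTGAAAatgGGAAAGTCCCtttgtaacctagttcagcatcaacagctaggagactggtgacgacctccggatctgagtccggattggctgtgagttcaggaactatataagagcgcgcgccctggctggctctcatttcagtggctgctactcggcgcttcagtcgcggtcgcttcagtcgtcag
In H2-K1 an NF-kappa B match on the gene's strand begins at position -110 from the start site and overlaps one on the opposite strand at -111, and the interferon regulatory factor match begins at -90. From its other start site these stand at -124, -125 and -104. In B2m the matches begin at -137 (interferon regulatory factor) and -126 (NF-kappa B), without overlap. Of 32851 promoter windows of this length, 23.9% held the first motif, 4.16% the second and 0.807% both. Promoters of 7 of the 9 genes were in the table, in 9 windows, since H2-K1 and Psmc2 each had 2 start sites. H2-K1 (both windows) and B2m held both motifs, 1 of the 2 windows of Psmc2 held the first, and Tap1, Tapbp, Psmb5 and Psmb10 held neither. These are matches of letters in the C57BL/6J sequence, not measured binding in Balbc pups. Their part in the values of BDS 17 was not tested.

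Ranked by how far BDS 17 exceeded the highest of the 9 other lanes, H2-K1 came first of the 283 genes, by 1.62 on the log2 scale, and B2m came 26th, by 0.37. This was computed after the lane had been seen to stand apart. BDS 17 was the deepest lane and the highest of the 10 for 77 of the 283 genes, so a top place there is not rare. The ratio of H2-K1 to B2m within a lane, which needs no scaling, was highest in BDS 17 at -1.01 on the log2 scale and lowest in control 52 at -2.33. Its group means were -1.73 ± 0.40 in control lanes and -1.65 ± 0.38 in BDS lanes, a difference of 0.08 (SD, n = 5 each; exact two-sided permutation p = 0.754, adjusted over the 4 ratios tested 0.754). In BDS 17 the endothelial gene Cdh5 was also highest, at 279 normalized counts against 35.7 to 161 elsewhere. The sum of the 4 endothelial markers was 994 there and 765 to 1685 in other lanes. The 3 natural killer cell markers summed to 85.5 there, above the 35.3 to 69.0 of other lanes. Gzmb and Klrd1 among them exceeded the limit in 0 lanes, so that sum rests chiefly on Prf1. Within the range of other lanes were T cell genes (103 against 89.0 to 413) and B cell markers (1379 against 963 to 1918). So were dendritic cell and monocyte markers (139 against 94.6 to 280). Neutrophil markers, at 1067 (Csf3r alone 1021), were below the 1107 to 3453 of other lanes. Microglia markers summed to 152410 against 140141 to 195158. The part of other cells in the H2-K1 value was not tested.

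Tap1 encodes a subunit of the TAP peptide transporter. Its raw counts were 15, 18, 27, 29 and 16 in control lanes and 10, 27, 17, 15 and 20 in those of BDS pups, against background limits of 13.9 to 26.3 across lanes. It exceeded the limit in 3 control lanes and 1 BDS lane, so it passed the filter chiefly through control lanes. Raw counts overlapped between the groups and did not follow the depth of the lane. After scaling, control lanes stood at 18.7, 16.2, 14.7, 148 and 43.5 normalized counts and BDS lanes at 12.1, 12.4, 9.83, 7.77 and 14.2. The scaled groups did not overlap, as in 4.59% of the genes tested (1.06% with BDS lower), and the values of 148 and 43.5 belong to control 52 and 69. The log2 fold change was -1.80 ± 0.59 (SE; edgeR unadjusted p = 0.00856, adjusted p = 0.101; DESeq2 adjusted p = 0.0139). With lane depth as a covariate it was -0.31 ± 0.37 (edgeR adjusted p = 0.650), and with any of control 40, 52, 69 or BDS 17 left out Tap1 no longer passed the filter. Over its 18 alternatives the adjusted p ranged from 0.0139 to 0.844.

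Tapbp encodes tapasin, which bridges TAP and the heavy chain. It exceeded the limit in all 10 lanes, at 139, 169, 173, 382 and 331 normalized counts in control pups 1, 18, 40, 52 and 69. BDS lanes 11, 17, 24, 38 and 59 stood at 196, 236, 183, 298 and 259.6. BDS lanes lay between the 3 deeper and the 2 shallowest control lanes. The means were 239 ± 110.0 and 235 ± 46.8 (SD, n = 5 each), with a difference of 0.01 ± 0.29 in log2 (SE; edgeR adjusted p = 0.989). Its sign depended on the scaling, being -0.20 with Sdha left out of the housekeeping genes. With lane depth as a covariate it was 0.50 ± 0.29, and without control 52 and 69 it was 0.55 ± 0.22 (edgeR unadjusted p = 0.0300, adjusted p = 0.126). Those 2 lanes were the highest of the 10 and were left out after the data were seen. Every BDS lane lay above the 3 other control lanes, so the direction of that fit follows from the removal. In it, 87 of 278 genes had an unadjusted p under 0.05 (edgeR). In BDS 17, where H2-K1 stood apart, Tapbp lay inside the range of the other BDS lanes.

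**Figure D2:**
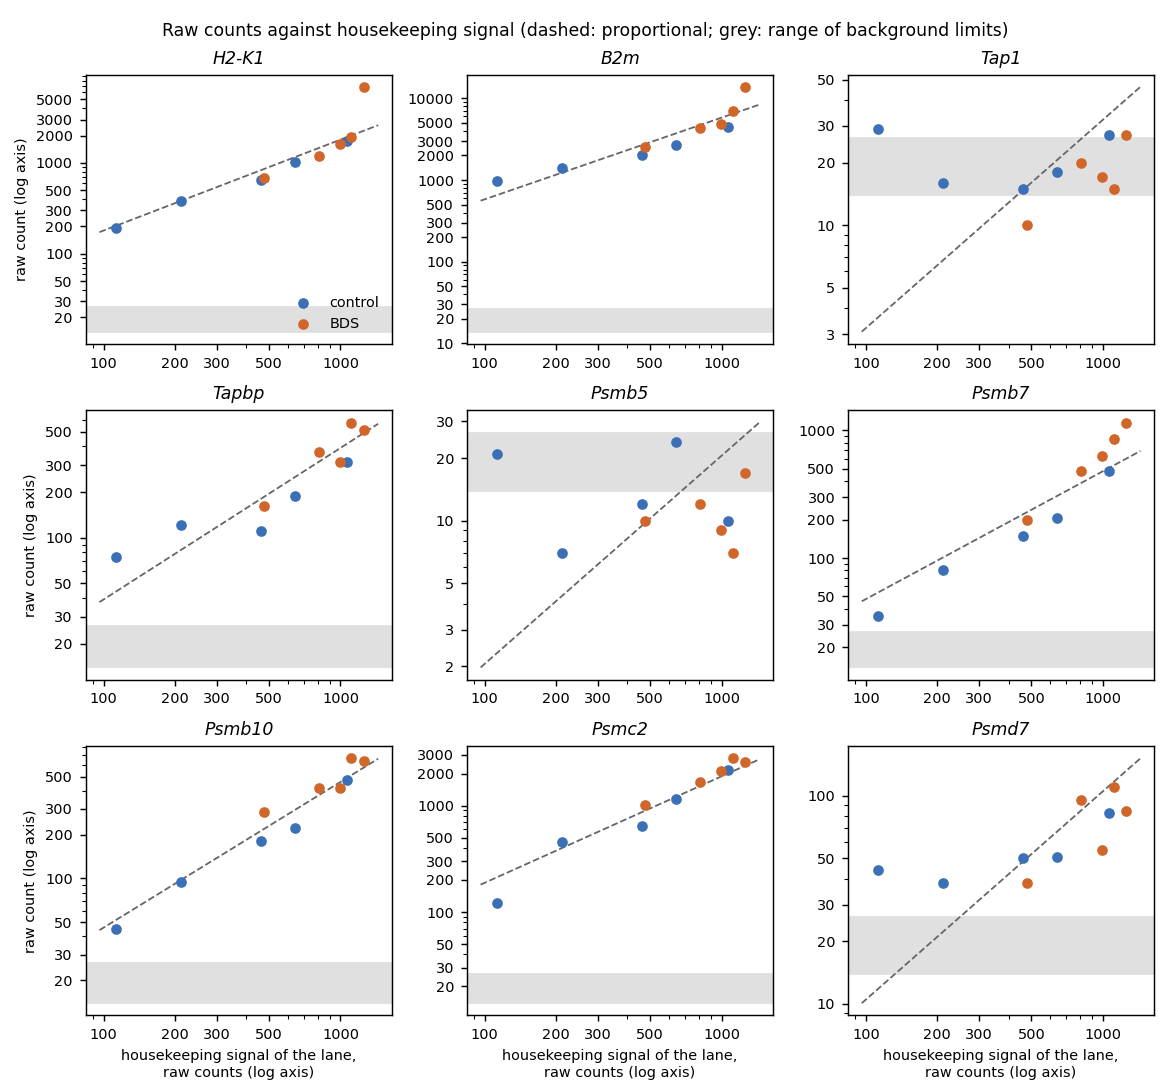
Raw counts of the 9 genes against the housekeeping signal of the lane (geometric mean of 6 genes, raw counts), both on log axes, with control lanes in blue and BDS lanes in orange. The dashed line is proportionality and the grey band the range of background limits, 13.9 to 26.3 counts. H2-K1, Psmb10 and Psmc2 run along the line in most lanes, while Tap1, Psmb5 and Psmd7 change little over the 11.1-fold range of signal.

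The catalytic core of the proteasome was represented by Psmb5 and Psmb7, constitutive subunits with chymotrypsin-like and trypsin-like activity, and by Psmb10, the interferon-inducible subunit (MECL-1) that takes the place of Psmb7 in the immunoproteasome. Psmb7 stood at 186, 186, 261, 178 and 220.0 normalized counts in control pups 1, 18, 40, 52 and 69. In BDS lanes 11, 17, 24, 38 and 59 it stood at 241, 528, 365, 443 and 338. Only BDS 11 fell within the control range, below control 40. The means were 207 ± 34.7 and 383 ± 109 (SD, n = 5 each). The log2 fold change was 0.89 ± 0.23 (SE; edgeR unadjusted p = 0.00141, adjusted p = 0.0642), which missed the threshold of 0.05. DESeq2 gave an adjusted p of 0.00897, the lowest over 25 alternatives, of which the highest was 0.369. The authors' deposited table gives a fold change of 1.63 with an unadjusted p of 0.0123.

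Among BDS lanes Psmb7 followed the depth of the lane. Those lanes ordered by housekeeping signal, from 11 through 59, 24 and 38 to 17, had the same order in Psmb7. Side by side, control 40 with a housekeeping signal of 1060.3 stood at 261, and BDS 24 and 38 with signals of 997 and 1113 stood at 365 and 443. Control 1, with a signal of 461, stood at 186, and BDS 11, with 477, at 241. Each of these comparisons rests on 1 control lane and was not among the planned tests, and no test was made of them. A covariate for lane depth gave 0.63 ± 0.25 (SE; edgeR unadjusted p = 0.0248, adjusted p = 0.369), and without BDS 17 it was 0.74 ± 0.22 (edgeR adjusted p = 0.180). It was higher in BDS lanes in each of the 25 alternatives run.

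Psmb10 differed less and in a narrower range. Control lanes stood at 225, 201, 255, 229 and 258 normalized counts and BDS lanes at 345, 293, 241, 345 and 295. Only BDS 24 lay within the control range. The means were 234 ± 23.7 and 304 ± 43.4 (SD, n = 5 each), with a difference of 0.38 ± 0.18 in log2 (SE; edgeR unadjusted p = 0.0551, adjusted p = 0.179). It was 0.41 ± 0.20 with depth as a covariate and 0.39 ± 0.19 without BDS 17, but 0.25 with median-of-ratios factors, 0.20 without Sdha and 0.19 on the authors' scores (adjusted p = 0.344 and 0.467 by edgeR and 0.473 by limma). BDS 17, where H2-K1 and Psmb7 were highest, was above only BDS 24 among the BDS lanes in Psmb10.

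The ratio of Psmb10 to Psmb7 sets the inducible subunit against the one it replaces, within a lane and free of scaling. On the log2 scale it was 0.27, 0.11, -0.03, 0.35 and 0.23 in control lanes 1, 18, 40, 52 and 69. BDS lanes 17, 24, 38 and 59 stood at -0.85, -0.60, -0.36 and -0.20, below all control lanes, and BDS 11 at 0.52, above them. The means were 0.19 ± 0.15 and -0.30 ± 0.52, a difference of -0.48 (SD, n = 5 each; exact two-sided permutation p = 0.0794, adjusted over 4 ratios 0.106). Without BDS 11, the BDS lane of least depth, the difference was -0.69 (exact permutation p = 0.00794, the smallest its 4 against 5 lanes can give, adjusted p = 0.0317). That lane is the one that lay against the others, so its removal leaves groups without overlap. Without BDS 17 the difference was -0.34 (exact permutation p = 0.167, adjusted p = 0.222) and without BDS 24 it was -0.41 (exact permutation adjusted p = 0.212). Needing no scaling does not make this ratio independent of lane depth. Control 1, 18, 52 and 69 and BDS 11, with housekeeping signals from 113 to 640, all had a positive log2 ratio. Control 40 and BDS 17, 24, 38 and 59, with signals from 813 to 1254, all had a negative one. The part of lane depth in the group difference was not tested.

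Psmb5 gave raw counts of 12, 24, 10, 21 and 7 in control pups and 10, 17, 9, 7 and 12 in BDS pups. It exceeded the limit in 1 lane, BDS 17, and no level can be given for it at this depth. The ratio of Psmb10 to Psmb5 averaged 3.41 ± 1.56 in control pups and 5.32 ± 0.64 in BDS pups on the log2 scale (SD, n = 5 each), a difference of 1.92 (exact two-sided permutation p = 0.0397, adjusted over 4 ratios 0.106). Without control 40 it was 2.42 (exact permutation adjusted p = 0.0317). Control 40 had the highest ratio of the control lanes, at 5.42, so its removal widens the difference. Psmb5 did not exceed the limit in the other 9 lanes, so in those the ratio sets Psmb10 against a background reading, and the lane depth differed between the groups.

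**Figure D3:**
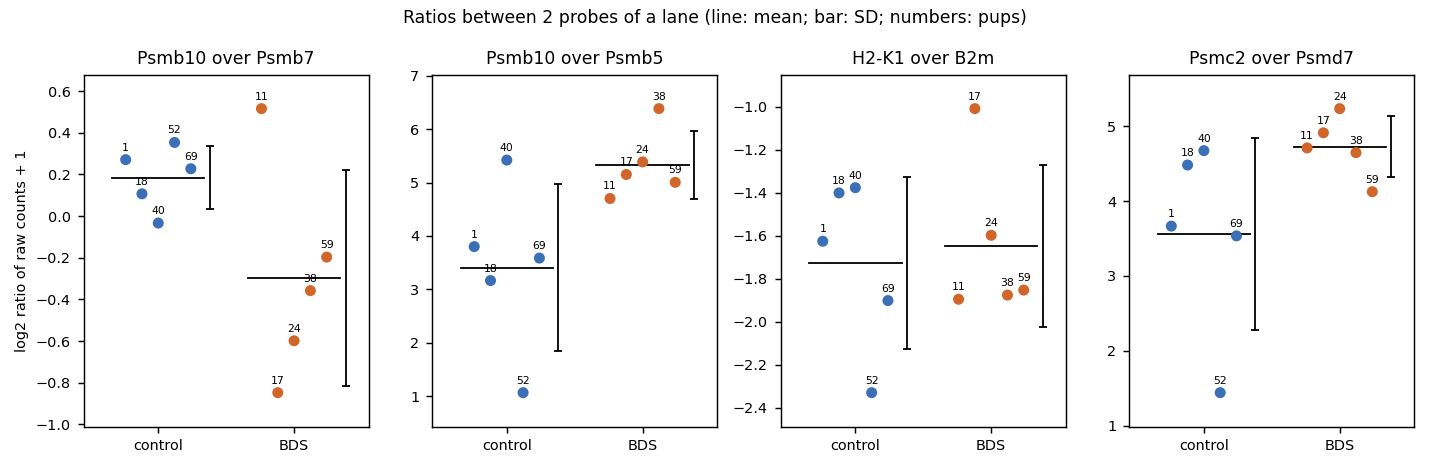
Log2 ratios of raw counts (plus 1) of 2 probes in the same lane, for 5 control (blue) and 5 BDS (orange) lanes with pup numbers, group means (lines) and SD (bars). In Psmb10 over Psmb7, 4 BDS lanes lie below all control lanes and BDS 11 lies above them.

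The regulatory particle was represented by Psmc2, an ATPase of its base that unfolds substrates, and Psmd7, a scaffold subunit of its lid. Psmc2 stood at 807, 1046, 1165, 617 and 1225 normalized counts in control pups and at 1234, 1189.7, 1219, 1439.8 and 1187 in BDS lanes. BDS lanes were alike, while the control lanes spread downward, with control 52 lowest. The means were 972 ± 255 and 1254 ± 106 (SD, n = 5 each), with a difference of 0.36 ± 0.20 in log2 (SE; edgeR adjusted p = 0.229). Without control 52 it was 0.24 ± 0.16, and with lane depth as a covariate 0.20 ± 0.21.

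Psmd7 gave raw counts of 50, 51, 83, 44 and 38 in control pups and 38, 85, 55, 110 and 95 in BDS pups. These counts spanned a 2.89-fold range across lanes whose housekeeping signal spanned 11.1-fold, while Psmc2 raw counts went from 121 to 2780. Scaled, control lanes stood at 62.5, 45.9, 45.1, 224 and 103 and BDS lanes at 46.0, 39.1, 31.8, 57.0 and 67.4 normalized counts. The 2 high values are those of control 52 and 69. The log2 fold change was -0.88 ± 0.42 (SE; edgeR adjusted p = 0.179), but -0.08 ± 0.28 without control 52 and 69 and 0.10 ± 0.32 with lane depth as a covariate. The ratio of Psmc2 to Psmd7 was 3.56 ± 1.28 and 4.73 ± 0.41 on the log2 scale in control and BDS lanes (SD, n = 5 each), a difference of 1.17 (exact two-sided permutation p = 0.0556, adjusted over 4 ratios 0.106). It was 0.64 without control 52 (exact permutation adjusted p = 0.190) and 1.45 without control 40 (exact permutation adjusted p = 0.0317). Control 40 had the highest ratio of the control lanes, at 4.67, so its removal widens the difference. Psmd7 raw counts changed far less with lane depth than those of Psmc2, so this ratio is not independent of depth. The part of depth in its group difference was not tested.

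**Figure D4:**
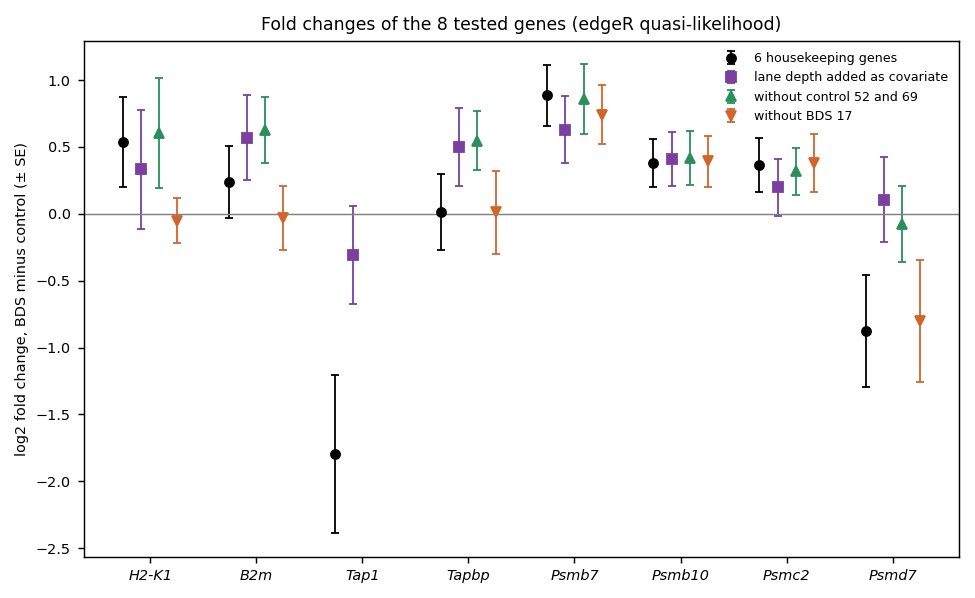
Log2 fold changes, BDS minus control, with SE, of the 8 tested genes by edgeR under 4 settings: housekeeping scaling, lane depth as a covariate, without control 52 and 69, and without BDS 17. Psmb7, Psmb10 and Psmc2 stay above 0 in all 4, H2-K1 and B2m move to about 0 without BDS 17, and Psmd7 is near 0 with the covariate and without the shallow control lanes. Tap1 is not shown where it no longer passed the filter.

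Of 18 further class I pathway genes listed, 5 were among the measured genes, 4 were tested, and 0 passed the adjusted threshold (2 at an unadjusted p under 0.05, both higher, where the panel had 19.4% higher). Psmb9, the inducible subunit encoded beside Tap1, averaged 98.3 ± 29.8 normalized counts in control pups and 95.5 ± 30.0 in BDS pups, with a difference of 0.00 ± 0.28 in log2 (SE, n = 5 each; edgeR adjusted p = 0.994). It was highest in BDS 17 at 149, against 63.1 to 130.4 elsewhere. Bcap31, which guides newly made class I molecules out of the endoplasmic reticulum, had a difference of 0.77 ± 0.20 in log2 (edgeR adjusted p = 0.0642). Mr1, a class I-like molecule that presents vitamin metabolites, was at 0.56 ± 0.26 and Cd1d1, which presents lipids, at -0.39 ± 0.45, both near the background limit in some lanes. H2-Q10 exceeded the limit in no lane.

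Of 19 genes listed as regulators of class I transcription, 17 were measured and 15 tested, and 0 passed the adjusted threshold (at an unadjusted p under 0.05, 1 higher and 1 lower, where the panel had 19.4% higher and 8.83% lower). Irf1, a factor that binds class I promoters, had a log2 fold change of 0.41 ± 0.19, the interferon gamma receptor chains Ifngr1 and Ifngr2 at -0.26 ± 0.19 and 0.34 ± 0.17, and the NF-kappa B subunit Rela at -0.09 ± 0.16 (SE). The gene with the lower value was the kinase Jak1, at -1.19 ± 0.53, with 561 normalized counts in control 52 against 57.1 to 168 elsewhere. The interferon genes Ifnb1 and Ifng exceeded the limit in 0 and 1 of the 10 lanes. Of 12 class I receptor genes of lymphocytes on the panel, only Klrk1 was tested (log2 fold change -0.06 ± 0.24), and Cd8a and Cd8b1, the co-receptor of class I-restricted T cells, were not.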

How the data were processed

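Barcode counts per probe were deposited raw, per the labels' protocols from 2 ng of RNA amplified by 5 rounds of PCR. No source used here names the counting software. A second table deposited by the authors gives normalized counts rounded to whole numbers (treated as a score), the percent of samples above background, the fold change as a ratio of group means, and an unadjusted p-value. Their scaling used positive controls and 5 housekeeping genes, although the series' design text names 6.

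Here, raw counts were scaled by the geometric mean of those 6 genes (Alas1, Gapdh, Oaz1, Polr1b, Sdha, Tbp) and rescaled to its geometric mean over lanes. They were tested with edgeR 4.0.16 in R 4.3.3 (two-sided quasi-likelihood test, Benjamini-Hochberg over 283 genes). The SE divides the log2 fold change by the square root of F. Positive values mean higher in BDS. Ratios of 2 probes used log2 of raw counts plus 1 and exact permutation tests over 252 assignments. Simulated counts with known changes were used to test the edgeR step. DESeq2 1.42.0 and limma 3.58.1 were alternatives, as were other scalings, filters, background subtraction, a covariate for lane depth, and fits that left out each pup in turn. Fits without control 52 and 69, and without these and BDS 17, were added after seeing the data. Each pup had its own litter, and p-values measure the spread among pups. Counts after PCR are not independent molecules.

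The 9 genes, the lists and the tests were chosen with earlier results of these data known. The rule named all 9 genes, the 6 housekeeping genes and genes of the lists. Cd74, Jak3, Cd160, Lilrb4, Il4ra, Fcgr2b, Cxcr6 and Ifih1 were named after their values were seen. Cdh5 was on the endothelial list, but was singled out in BDS 17 after its value was seen. Accessions of all 9 genes matched RefSeq by symbol and transcript. Some genes of the lists are not reported here.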

Additional observations from a re-analysis of the deposited data

Results flagged for a closer look

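In a check of the lowest and highest lane of each group of 5, 5 of 28 groups had a lane whose gap to its neighbour exceeded 0.71 of the group's range, where chance gives about 5% of groups. H2-K1 in BDS lanes was flagged for BDS 17, at 3164 normalized counts, with a gap of 0.931 of the range. B2m was flagged for the same lane, at 6371, with 0.772. Tap1 and Psmb5 in control lanes were flagged for control 52, at 148 and 107 normalized counts with gaps of 0.784 and 0.841, although the raw counts there were 29 and 21. Psmc2 in BDS lanes was flagged for BDS 38, at 1439.8 against 1187 to 1234 in the 4 other BDS lanes, with 0.816.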

How the results depend on the processing

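Of the 8 tested genes, Psmb7, Psmb10 and Psmc2 kept their direction in all 25 alternatives (lowest values 0.63, 0.19 and 0.19 on the log2 scale). Psmb7 passed an adjusted p of 0.05 in 5 of them: DESeq2, scaling without Polr1b, only genes above the limit in all lanes, and without control 40 or BDS 11. The highest values came from positive controls alone, which put the median of all genes at 1.35 in place of 0.09 (-0.039 with TMM, -0.088 without Sdha, -0.24 with no filter) and turned Tap1 to 0.10 and Psmd7 to 0.84. Psmd7 was at 0.10 with lane depth as a covariate. Tapbp turned to -0.079 with TMM, -0.10 with median-of-ratios factors, -0.20 without Sdha, -0.090 after subtraction of the negative-probe mean and -0.12 on the authors' scores. With each pup left out in turn, Tapbp ranged from -0.13 to 0.24, H2-K1 from -0.051 to 0.67 and B2m from -0.030 to 0.44. Psmb5 entered the fit only with no filter, at -1.87 ± 0.64 (edgeR adjusted p = 0.116). The count of genes called was 0 with edgeR and 6-gene scaling, 14 with positive controls alone, 15 without Polr1b, 10 among the 197 genes above the limit in all lanes, 26 with DESeq2, 0 in the other 11 alternatives that left out no single pup, and 0 to 47 with a pup left out. Genes at an unadjusted p under 0.05 numbered 80, of them 55 higher and 25 lower, and 128 with positive controls alone, 139 with no filter, 36 with the covariate and 44 without BDS 17. TMM scaling split them into 36 higher and 39 lower, scaling without Sdha into 25 and 49, median-of-ratios factors into 33 and 40, the authors' scores into 24 and 41, and scaling without Polr1b into 76 and 12. With a pup left out, the difference of Psmb10 over Psmb7 ranged from -0.69 to -0.34, of Psmb10 over Psmb5 from 1.33 to 2.42, of H2-K1 over B2m from -0.079 to 0.17 and of Psmc2 over Psmd7 from 0.64 to 1.45. The difference in housekeeping signal ranged from 0.80 to 1.61. A pseudocount of 10 or background subtraction changed no call of a ratio. The cause of these shifts was not tested. No paired analysis was made, because each pup had its own litter and no pairing of pups between the groups is described.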

Other observations

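BDS 17, the pup with the highest H2-K1, was the highest of the 10 lanes in 77 of the 283 genes tested, H2-K1 included. After H2-K1, the genes that most exceeded their next highest lane were Cd74, the invariant chain of MHC class II, at 119 normalized counts against 16.3 to 47.2 elsewhere, and the kinase Jak3, at 1505 against 311 to 789. Next came the receptors Cd160, at 143 against 20.4 to 76.1, and Lilrb4, at 245 against 40.0 to 135. Stat2 stood at 192 against 81.5 to 127 and the RNA sensor Ifih1 at 212 against 47.5 to 140.4. The interleukin-4 receptor chain Il4ra stood at 641 against 114 to 377, the inhibitory Fc receptor Fcgr2b at 2957 against 549.7 to 1884 and the chemokine receptor Cxcr6 at 341 against 61.2 to 226. Irf1 stood at 1187 against 535 to 883. Tap1, Tapbp, Psmb10, Psmc2 and Psmd7 were not highest there. These genes were picked after this lane had been seen to stand apart, and no test was made of it.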
